A study of Mus musculus with 40 samples.

Results

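The liver and the gonadal white fat (gWAT, the depot next to the uterus and ovaries) of daughters were set side by side, gene by gene, to ask which transcripts moved together and which moved apart when the father had been exposed to nicotine. RNA levels were measured by sequencing of 3′ tags from polyadenylated RNA. Of the 40 samples in the series, the 20 female ones were used: 5 liver and 5 gWAT samples of control daughters and 5 of each tissue of daughters in the nicotine group. All are C57BL/6J mice with the same batch number. The exposure was the father's and not the daughters' own, and the control treatment is called DMSO in the table headers. The labels leave out age, dose and litter, and do not state whether a liver and a gWAT sample of the same number came from the same daughter. P-values therefore refer to the spread among these samples and nothing wider, and that spread may be technical. Genes were taken where the mean normalized count was 10 or more in both female tables, which left 8147 of the 13745 genes listed in both tables and of the 18176 listed in either. Klhl20, at a mean of 10.001 in liver, was just inside that limit, and Alas2, just under 10 in liver, was just outside it.

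Liver and white fat handle the same fuel in different ways. Adipocytes store triglyceride and release fatty acids through the lipases ATGL (Pnpla2), HSL (Lipe) and monoglyceride lipase (Mgll), while hepatocytes burn fatty acids, turn them into ketone bodies or export them in lipoproteins. Both tissues also run their own circadian clock, in which CLOCK and BMAL1 bind E-box sequences and switch on Per, Cry and Nr1d genes, and in which the related factors DBP, TEF and HLF bind D-box sequences and pass the rhythm on. Changes are given below as log2 change, the nicotine mean minus the control mean of log2(normalized count + 1), a scale that understates the change of low genes. The tissue contrast is the log2 change in gWAT minus that in liver, so a positive contrast means that the change was more positive in gWAT. Values after ± are SDs over 5 libraries, adjusted p-values are from limma with Benjamini-Hochberg adjustment, and a gene is said to have risen, fallen or been called where its adjusted p was below 0.05.

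The libraries held 1783822 to 2239073 reads assigned to genes. Both tissues matched their labels by marker genes: 19 hepatocyte markers summed to between 154334 and 182475 normalized counts in liver, and 17 adipocyte markers to between 60961 and 156193 in gWAT. Some libraries carried transcripts of neighbouring tissue. Skeletal muscle markers summed to 269 in liver control 4 and 427 in liver nicotine 5, and to 34870.3 in gWAT control 2. In gWAT they also summed to 1521 in control 1, 1889 in nicotine 2 and 1006 in nicotine 5, against 64.9 to 163 in the other gWAT libraries. Ovary and oviduct markers summed to 4240 in gWAT control 4 and 1496 in gWAT control 5, against a median of 109 in the gWAT controls. In gWAT the share of reads from the mitochondrial ribosomal RNAs ran from 8.23 to 13.0% among controls, below all nicotine libraries (19.3 to 32.5%), while in liver it was 18.9 to 20.7% and 16.5 to 19.4%. The macrophage markers of gWAT also separated by group, with controls at 1986 to 3933 and nicotine libraries at 715 to 1312. In liver the 26 endothelium markers separated by group, with controls at 1885 to 1919 and nicotine libraries at 1331 to 1582. In gWAT the endothelium markers overlapped, at 2121 to 3669 and 2741 to 4191. The part of these differences in the changes below was not tested, except by leaving libraries out. In bulk tissue, fewer cells of a type and less RNA per cell cannot be told apart.

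**Figure D1:**
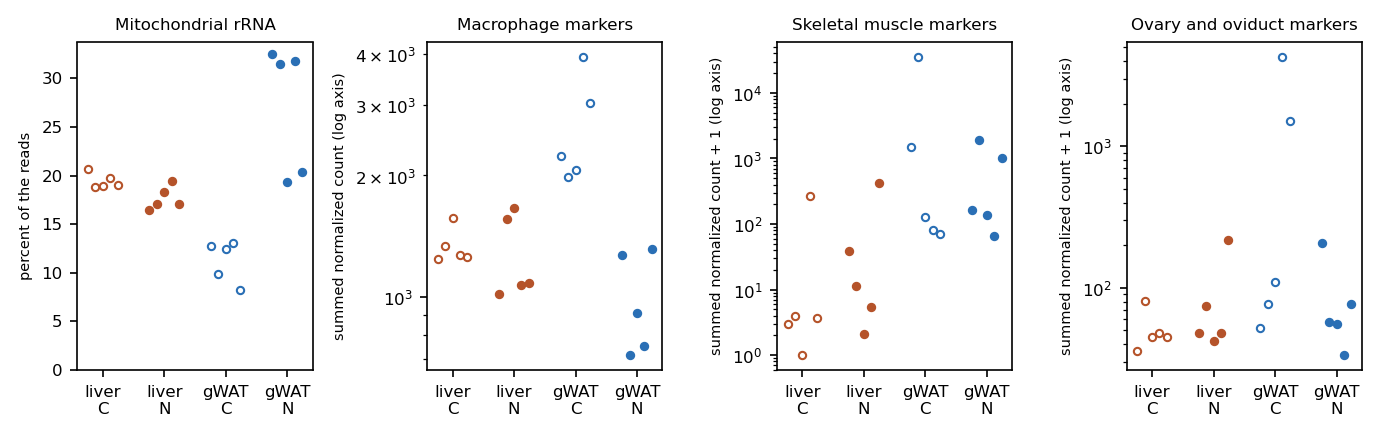
Mitochondrial rRNA as a percent of the reads, and summed normalized counts of macrophage, skeletal muscle and ovary and oviduct markers (log axes), 1 point per library in the order of replicate numbers, C control (open) and N nicotine (filled). Mitochondrial rRNA and macrophage markers separate the gWAT groups without overlap, and 1 gWAT control stands at 34870.3 for muscle markers and another at 4240 for ovary and oviduct markers.

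The change was wider in gWAT than in liver. The log2 changes of the 8147 genes had an SD of 0.664 in gWAT and 0.291 in liver, with median standard errors of 0.235 and 0.167. In gWAT 960 genes (11.8%) changed by more than 2-fold on the log2(normalized count + 1) scale, and in liver 61 genes (0.749%). In gWAT 2131 genes were called, 26.2% of those tested (1156 or 14.2% higher, 975 or 12.0% lower). In liver 234 genes were called, 2.87% (110 or 1.35% higher, 124 or 1.52% lower). Over each whole table the shares were 25.2% of 10532 genes in gWAT and 3.28% of 9173 in liver. The liver count was 152 without liver control 1, 146 without liver control 5, 150 without liver nicotine 4, and 134 without the livers that carried muscle transcripts. The gWAT count was 1218 without gWAT controls 2 and 4, which carried muscle and ovary or oviduct transcripts, an alternative chosen after seeing the data, and 762 without gWAT control 5 as well, which left 2 controls. Across genes the changes in the 2 tissues were weakly correlated (Pearson r = 0.123, Spearman rho = 0.110, 53.7% of genes with the same sign), a description only, since genes are not independent replicates. The tissue contrast was called for 1584 genes, 19.4%, of which 898 (11.0%) were more positive in gWAT and 686 (8.42%) more negative. Over the 7914 genes with a transcript length, Spearman's rho of the change with length was 0.240 in gWAT and 0.017 in liver. With GC content it was -0.217 in gWAT and -0.034 in liver.

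**Figure D2:**
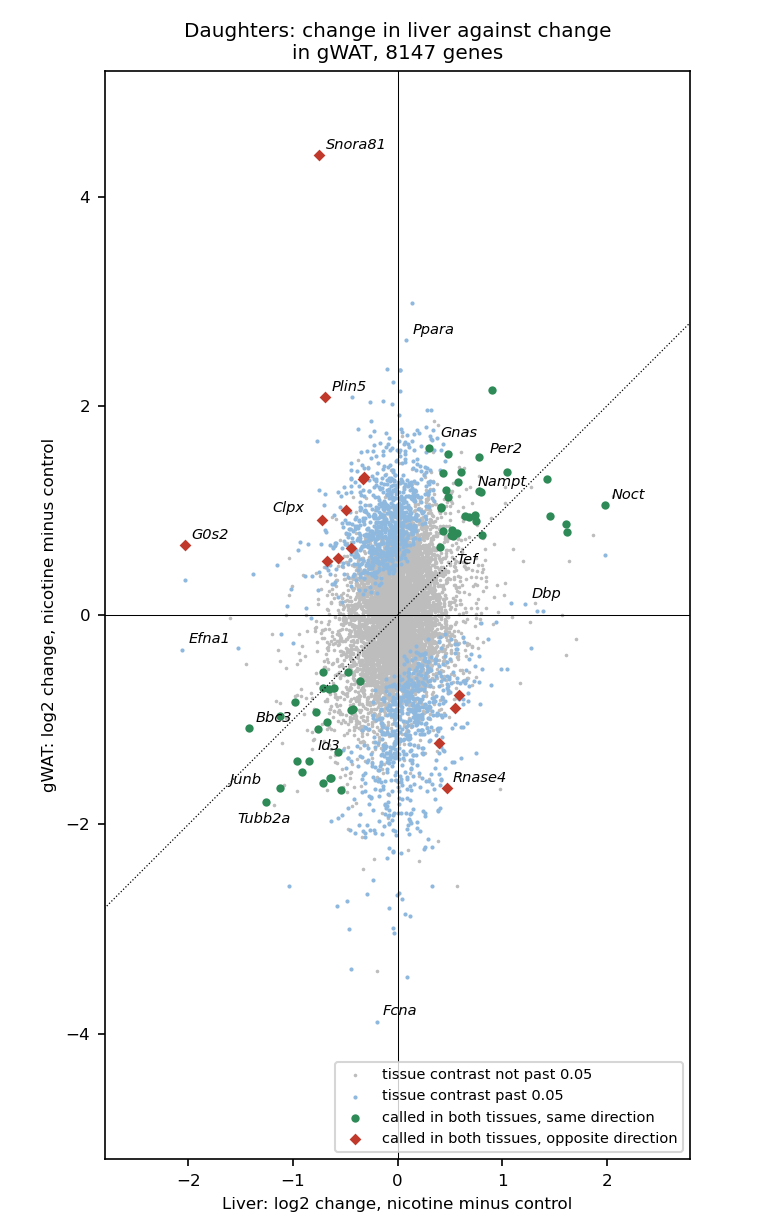
Log2 change in liver (x axis) against log2 change in gWAT (y axis) for 8147 genes, 1 point per gene, with the dotted line where both changes are equal. Pale blue points have a called contrast (1584 genes, of which 23 are drawn in green or red), green points were called in both tissues with the same sign (54 genes) and red diamonds with opposite signs (14 genes). The cloud is taller than wide, with an SD of 0.664 along the gWAT axis and 0.291 along the liver axis.

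Most genes called in liver had the same sign of change in gWAT. Of the 110 genes that rose in liver, 76 (69.1%) had a positive change in gWAT, against 52.0% of all tested genes. At an unadjusted p below 0.05 in gWAT, 34 of the 110 (30.9%, against 21.4% of all genes) were higher and 9 (8.18%, against 17.8%) were lower. Of the 124 genes that fell in liver, 82 (66.1%, against 48.0%) had a negative change in gWAT, 37 (29.8%) were lower there at an unadjusted p below 0.05 and 18 (14.5%) were higher. At the same threshold 39.2% of all genes passed in gWAT. The median change in gWAT was 0.30 for the first group and -0.23 for the second, against 0.03 for all genes. Of the 1156 genes that rose in gWAT, 653 (56.5%, against 48.6%) had a positive change in liver, 132 (11.4%, against 7.93% of all genes) were higher there at an unadjusted p below 0.05 and 68 (5.88%, against 8.49%) were lower. Of the 975 genes that fell in gWAT, 611 (62.7%, against 51.4%) had a negative change in liver.

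Both tissues called 68 genes (0.835%). They were 29.1% of the liver calls, against 26.2% of all tested genes called in gWAT. They were 3.19% of the gWAT calls, against 2.87% of all tested genes called in liver. The size of the overlap was thus near the share of all genes. Of the 68 genes, 54 (0.663%) changed in the same direction, 30 higher and 24 lower, and 14 (0.172%) in opposite directions. The change was larger in gWAT for 43 of the 54 genes, and 25 of the 54 had no overlap between exposure groups in either tissue. Over all genes, the groups did not overlap for 364 (4.47%) in liver, with 2.10% above and 2.37% below the controls, and for 1447 (17.8%) in gWAT, with 9.91% above and 7.86% below. They overlapped in neither tissue for 48 genes (0.589%) in the same direction and for 18 (0.221%) in opposite directions. The count of 54 was 33 without liver control 5, 34 without liver nicotine 4, and 35 without gWAT controls 2 and 4. The authors' deposited table gives 79 such genes at an adjusted p below 0.05, 60 in the same direction and 19 in opposite directions, of which 48 and 12 were also called in both tissues here.

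A stricter rule asks that the weaker of a gene's tissue changes pass when its p-values are adjusted over all 8147 genes. Tubb2a, which encodes a beta-tubulin of microtubules, was the gene that passed it, 0.0123% of those tested (adjusted p = 0.00096). The normalized counts of Tubb2a in liver were 104, 122, 74.8, 127 and 142 in the controls and 38.3, 50.4, 48.3, 48.0 and 46.5 in the nicotine group (log2 change -1.25, SE 0.15, adjusted p = 8.32e-05). In gWAT it stood at 141, 159, 158, 143 and 113 in the controls and 45.9, 44.7, 34.6, 31.2 and 48.8 in the nicotine group (log2 change -1.79, SE 0.18, adjusted p = 4.82e-05). Every nicotine library was below every control in both tissues, and the contrast of -0.53 (SE 0.24, adjusted p = 0.118) did not pass. Tuba1c, an alpha-tubulin, also fell in both, from 501 ± 101 to 301 ± 24.7 in liver and 203 ± 28.2 to 127 ± 31.4 in gWAT (log2 changes -0.71 and -0.70). The gWAT change of Tuba1c was not called without gWAT controls 2 and 4 or with the length and GC trend removed. The call for Tubb2a under the stricter rule was lost without gWAT controls 2, 4 and 5. At an unadjusted p below 0.05 in each tissue and the same sign there were 356 genes (4.37%). DESeq2 on the recovered reads passed 6 (Car3, Gnas, Id3, Junb, Nampt and Tubb2a) and edgeR 1. Reads of Tubb2a may be shared with its close relative Tubb2b. Tubb2a is a minus-strand gene of chromosome 13 (34074274 to 34078007, mm10), and its promoter is shown because this gene fell in both tissues. In the 250 bases before the start site, from RefSeq (GRCm38.p6, chr13:34078009-34078258, minus strand), the capitals mark the cyclic AMP response element TGACGTCA, which begins 59 bases before the start site:
Tubb2a: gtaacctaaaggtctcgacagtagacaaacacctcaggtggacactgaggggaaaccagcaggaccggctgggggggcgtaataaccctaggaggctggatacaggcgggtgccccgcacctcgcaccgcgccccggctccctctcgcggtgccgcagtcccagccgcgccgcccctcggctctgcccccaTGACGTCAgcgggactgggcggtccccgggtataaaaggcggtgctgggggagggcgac
These letters, searched on both strands and not overlapping another motif searched, were in 1.55% of the 32851 promoters of that table and in 3.30% of the 8068 promoters of shared genes. They were in 2 of the 22 genes higher in both tissues that had a promoter and in 1 of the 20 lower ones, and no factor's binding was measured. These counts are of genes and the percentages of promoters, of which a gene can have several, so they do not compare directly.

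Id3, Nampt, Gnas and Car3, in that order, had the smallest larger p-values after Tubb2a. Nampt, the rate-limiting enzyme of NAD salvage and a gene with a daily rhythm, stood at 120.4, 143, 122, 142 and 143 in the controls and 213, 178, 186, 254 and 194 in the nicotine group in liver. It stood at 152, 129, 113, 84.3 and 112 in the controls and 237, 332, 372, 306 and 278 in the nicotine group in gWAT. All nicotine libraries were above all controls in both tissues, and the rise was larger in gWAT (log2 change 1.37, SE 0.18, adjusted p = 0.000269) than in liver (log2 change 0.60, SE 0.11, adjusted p = 0.0031), with a contrast of 0.77 (SE 0.21, adjusted p = 0.0139). The contrast was not called without gWAT controls 2, 4 and 5 or with the length and GC trend removed. Gnas, the stimulatory G protein subunit that couples hormone receptors to cyclic AMP, rose 1.40-fold in liver (236 ± 24.5 to 330.4 ± 33.5) and 2.92-fold in gWAT (377 ± 55.5 to 1103 ± 188), again without overlap and with a called contrast of 1.05 (SE 0.18, adjusted p = 0.000395). Car3, a carbonic anhydrase abundant in fat, rose from 1032 ± 286 to 1739 ± 102 in liver and from 3502 ± 681 to 8093 ± 2430.2 in gWAT, and its contrast of 0.39 (SE 0.27, adjusted p = 0.343) did not pass. Car3 is itself 1 of 17 adipocyte markers. In liver the other 16 summed to 132, 295, 178, 295 and 195 in the controls and 393, 721, 208, 152 and 330 in the nicotine group. These ranges overlap, and the part of adipocyte transcripts in the Car3 change of liver was not tested. Of the 17 markers, 3 were at 0 in every liver library of each group. Id3, an inhibitor of basic helix-loop-helix factors, fell from 270.3 ± 57.5 to 151 ± 32.7 in liver and from 606 ± 90.4 to 234 ± 55.8 in gWAT, with no overlap in either tissue (log2 changes -0.84, adjusted p = 0.00262, and -1.39, adjusted p = 0.000249). Fcgr2b, an inhibitory Fc receptor of macrophages and sinusoidal endothelium, fell in both as well, with log2 changes of -0.64 in liver and -1.56 in gWAT. Its liver call was lost without the livers that carried muscle transcripts, and its gWAT call without gWAT controls 2, 4 and 5. Its contrast of -0.92 (SE 0.30, adjusted p = 0.036) was not called without liver control 1 or 5 or liver nicotine 1 or gWAT control 4 or gWAT nicotine 4 (adjusted p 0.0557 to 0.0724). The endothelium markers of liver were also lower in the nicotine group, and their part in the Fcgr2b change was not tested.

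**Figure D3:**
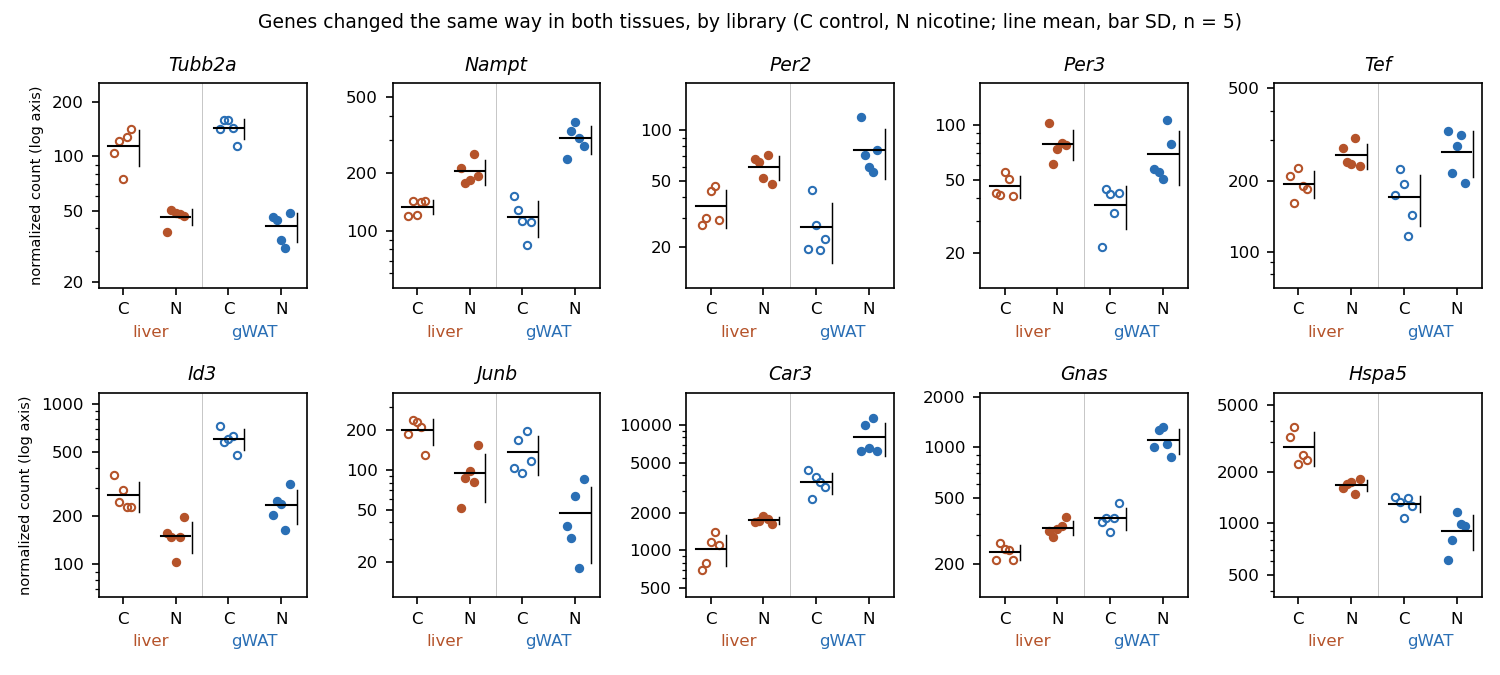
Normalized counts (log axes) of 10 genes that were called in the same direction in both tissues, 1 point per library, C control (open) and N nicotine (filled), black line the mean and bar the SD of 5 libraries. Tubb2a, Nampt, Per2, Per3, Id3, Car3 and Gnas show no overlap between exposure groups in either tissue, and Tef, Junb and Hspa5 overlap in 1 tissue.

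Clock genes were among those higher in both tissues. Of 17 core clock genes tested, 6 rose and 1 fell in liver, 6 rose and 2 fell in gWAT, and Per2, Per3, Tef and Hlf rose in both. Over all genes 1.35% rose and 1.52% fell in liver, and 14.2% rose and 12.0% fell in gWAT. Without gWAT controls 2 and 4, 4 clock genes rose and 1 fell in gWAT, and with gWAT control 5 also left out, 2 rose and 1 fell. Without the livers that carried muscle transcripts, 4 rose and 0 fell in liver. Per2, a repressor of the CLOCK and BMAL1 pair, stood at 27.2, 29.9, 43.2, 46.6 and 29.1 in the controls and 66.8, 64.7, 51.6, 70.9 and 47.5 in the nicotine group in liver. In gWAT, Per2 stood at 19.6, 44.0, 27.1, 19.2 and 22.4 in the controls and 119, 71.2, 60.0, 56.5 and 75.9 in the nicotine group. Per3, its relative, stood at 42.7, 41.5, 55.6, 50.4 and 40.9 in the controls and 102, 60.9, 74.1, 79.6 and 77.5 in the nicotine group in liver. In gWAT, Per3 stood at 21.6, 44.9, 41.9, 33.0 and 42.2 in the controls and 57.3, 55.5, 50.9, 106 and 78.8 in the nicotine group. For both genes the 5 nicotine libraries lay above the 5 controls in each tissue. The log2 changes of Per2 were 0.78 (adjusted p = 0.0163) in liver and 1.51 (adjusted p = 0.00132) in gWAT, and those of Per3 0.75 (adjusted p = 0.00629) and 0.90 (adjusted p = 0.0194). Their contrasts, 0.74 (SE 0.33, adjusted p = 0.114) for Per2 and 0.15 (SE 0.30, adjusted p = 0.769) for Per3, did not pass, which does not show that the changes were equal. Tef rose 1.32-fold and 1.57-fold, and Hlf 1.34-fold and 2.13-fold, in liver and gWAT. Several of these calls were lost when 1 library was left out. Per2 in liver was not called without liver control 1 or 5 or liver nicotine 4 (adjusted p 0.05 to 0.053), nor Per3 in gWAT without gWAT nicotine 4 (adjusted p 0.0523). Tef was not called in liver without liver control 1, 2, 4 or 5 or liver nicotine 1, 2, 3 or 4 (adjusted p 0.0506 to 0.123). In gWAT, Tef was not called without gWAT control 4 or 5 or gWAT nicotine 1, 3 or 4 (adjusted p 0.0619 to 0.0818). Hlf was not called in liver without liver control 1, 2, 4 or 5 or liver nicotine 1, 2, 4 or 5 (adjusted p 0.0546 to 0.109). In gWAT, Hlf was not called without gWAT control 1 or 5 (adjusted p 0.0511 to 0.0551). Per1 rose in gWAT (log2 change 0.92, adjusted p = 0.016) and was not called in liver (log2 change 0.74, adjusted p = 0.0976), with a contrast of 0.19 (SE 0.36, adjusted p = 0.76). Dbp, the third of the D-box activators, rose in liver and was not called in gWAT. It stood at 59.2, 93.6, 122, 91.3 and 82.8 in the controls and 203, 186, 201, 256 and 186 in the nicotine group in liver. In gWAT, Dbp stood at 51.9, 84.3, 86.5, 86.1 and 59.6 in the controls and 115, 62.8, 98.2, 51.7 and 76.9 in the nicotine group. The liver groups did not overlap and the gWAT groups did, and the contrast was -1.12 (SE 0.29, adjusted p = 0.0103). It was not called without gWAT controls 2, 4 and 5, or with the length and GC trend removed. Nr1d1, a haem-sensing repressor of the loop, had log2 changes of -0.14 (adjusted p = 0.721) in liver and 0.04 (adjusted p = 0.894) in gWAT, and Clock fell in liver (log2 change -0.65, adjusted p = 0.0263) with a log2 change of -0.13 (adjusted p = 0.615) in gWAT. Clock in liver was not called without liver control 1, 4 or 5 or liver nicotine 2 or 4 (adjusted p 0.0543 to 0.0866). Bmal1, Npas2 and Ciart had means under 10 in at least 1 tissue and entered no contrast.

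Of 11 rhythmic output genes tested, 8 rose in liver and 4 rose and 1 fell in gWAT (2 and 1 with the length and GC trend removed, 2 and 0 without gWAT controls 2, 4 and 5), and Noct, Nampt and Alas1 rose in both. Of all tested genes, 1.35% rose in liver, and 14.2% rose and 12.0% fell in gWAT. Noct, a rhythmic phosphatase of NADP(H), stood at 22.3, 7.72, 16.3, 15.2 and 17.3 in the controls and 77.6, 66.6, 93.5, 74.2 and 25.8 in the nicotine group in liver. In gWAT, Noct stood at 27.4, 24.7, 11.4, 25.7 and 11.6 in the controls and 29.8, 43.5, 40.0, 39.7 and 49.7 in the nicotine group, with no overlap in either (log2 changes 1.98, adjusted p = 0.000547, and 1.05, adjusted p = 0.0163). Its gWAT call was lost with the length and GC trend removed (adjusted p = 0.0561). Alas1, which starts the synthesis of haem, rose 3.07-fold in liver and 1.77-fold in gWAT, where 3 of 5 nicotine libraries were above all controls. The gWAT call of Alas1 was lost without gWAT controls 2 and 4. Usp2, a rhythmic deubiquitinase, rose in liver (log2 change 2.06, adjusted p = 7.19e-05) and had a log2 change of 1.14 (adjusted p = 0.0672) in gWAT, and its contrast of -0.92 (SE 0.54, adjusted p = 0.245) did not pass. In gWAT control 2 it stood at 77.0, against at most 16.5 in the other gWAT controls, and without that library Usp2 was called in gWAT too (log2 change 1.63, adjusted p = 0.00157). The sequence of the Per3 promoter is shown as that of a clock gene higher in both tissues. Per3 lies on chromosome 4 on the minus strand, and the 250 bases before its start site (RefSeq, GRCm38.p6, chr4:151044666-151044915, minus strand) hold the D-box letters TTATGTAA in capitals, beginning 205 and 158 bases before the start site:
Per3: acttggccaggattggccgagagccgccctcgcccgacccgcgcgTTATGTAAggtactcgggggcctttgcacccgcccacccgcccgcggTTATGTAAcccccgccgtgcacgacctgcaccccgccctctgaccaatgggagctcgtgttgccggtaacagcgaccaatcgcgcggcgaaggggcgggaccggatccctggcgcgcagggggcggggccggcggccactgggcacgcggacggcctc
Those letters were in 1 of 22 genes higher in both tissues, in 0.543% of the promoters of shared genes and in 0.819% of all promoters of that length. The E-box letters CACGTG were in 7 of the 22 genes higher in both tissues, in 2 of the 20 lower ones, in 10.5% of the promoters of shared genes and in 6.02% of all promoters. An example is Il6ra, the receptor chain that binds interleukin-6, which lies on chromosome 3. Its 250 bases (RefSeq, GRCm38.p6, chr3:89913197-89913446, minus strand, inside a predicted gene of the other strand) have an E-box beginning 24 bases before the start site:
Il6ra: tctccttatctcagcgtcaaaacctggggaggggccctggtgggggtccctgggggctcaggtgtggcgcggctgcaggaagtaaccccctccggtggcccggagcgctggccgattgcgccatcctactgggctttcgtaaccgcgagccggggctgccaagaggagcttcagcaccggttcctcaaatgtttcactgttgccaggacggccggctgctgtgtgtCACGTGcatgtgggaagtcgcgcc
Il6ra rose from 26.0 ± 3.22 to 55.3 ± 10.6 in liver and from 8.04 ± 4.45 to 22.0 ± 9.51 in gWAT (log2 changes 1.05, adjusted p = 0.00095, and 1.36, adjusted p = 0.0222). The gWAT call was lost without gWAT nicotine 1 or 4 (adjusted p 0.0541 to 0.06), and also without gWAT controls 2 and 4. For both motifs the counts out of 22 and 20 are of genes, while the percentages are of promoters. The 6265 shared genes with a promoter had 8068 promoters, so these counts and percentages do not compare directly. Both motifs were searched on both strands, a match is a description of the letters, and no binding was measured. No promoter sequence was at hand for Per2, and 6265 of the 8147 shared genes had one.

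Among metabolic and signalling genes, Errfi1, a feedback inhibitor of the EGF receptor, rose from 421 ± 232 to 1181 ± 159.6 in liver and 22.9 ± 4.20 to 40.2 ± 5.87 in gWAT, without overlap in either tissue. Pik3r1, the regulatory subunit of PI3-kinase downstream of the insulin receptor, had log2 changes of 0.51 (adjusted p = 0.0135) in liver and 0.76 (adjusted p = 0.00847) in gWAT and rose without overlap, and its gWAT call was lost without gWAT controls 2 and 4. The phosphatidate phosphatases Lpin1 and Lpin2, which make diacylglycerol for triglyceride, rose in both tissues, with log2 changes of 1.45 and 0.41 in liver and 0.95 and 1.04 in gWAT. The gWAT call of Lpin1 was lost without gWAT control 2, 3, 4 or 5 or gWAT nicotine 2, 3 or 4 (adjusted p 0.0509 to 0.0839). That of Lpin2 was lost without gWAT control 1, 3 or 5 or gWAT nicotine 1, 3, 4 or 5 (adjusted p 0.0514 to 0.0832). Neither gWAT call held with edgeR. In liver, Lpin2 was not called without liver control 4 or 5 or liver nicotine 4 (adjusted p 0.0527 to 0.0556). Dbt, a subunit of the branched-chain keto acid dehydrogenase, rose in both, with log2 changes of 0.46 (adjusted p = 0.0372) in liver and 1.20 (adjusted p = 0.00119) in gWAT, and so did Suclg2, a succinyl-CoA ligase subunit, with 0.44 (adjusted p = 0.0327) and 0.81 (adjusted p = 0.0124). In liver, Dbt was not called without liver control 1, 2, 4 or 5 or liver nicotine 1, 3 or 4 (adjusted p 0.052 to 0.103). Suclg2 was not called there without liver control 1, 4 or 5 or liver nicotine 3, 4 or 5 (adjusted p 0.0717 to 0.0941). The contrast of Dbt, 0.74 (SE 0.24, adjusted p = 0.0343), was not called without liver control 1 or 3 or liver nicotine 1, 2 or 5 or gWAT control 2, 4 or 5 or gWAT nicotine 2 or 4 (adjusted p 0.0531 to 0.068). Other genes that rose in both included Ankrd12, Npc1, Baz1a, Tob2, Sephs2, Rhobtb1, Fam13a, Nrn1, Cep85l and Hpx, and 3 were predicted genes.

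Genes lower in both tissues included stress and immediate early genes. Junb, a subunit of the AP-1 transcription factor, stood at 186, 240.1, 230.2, 211 and 129 in the controls and 51.1, 87.5, 98.8, 80.7 and 154 in the nicotine group in liver. In gWAT, Junb stood at 104, 168, 94.3, 199 and 116 in the controls and 37.8, 30.2, 63.6, 18.0 and 85.3 in the nicotine group. In liver 4 of 5 nicotine libraries were below all controls and in gWAT all 5, with log2 changes of -1.13 (SE 0.21, adjusted p = 0.00449) and -1.65 (SE 0.35, adjusted p = 0.00465). Bbc3, the p53 target that encodes the pro-apoptotic protein PUMA, fell from 123 ± 24.6 to 47.9 ± 20.7 in liver and from 74.6 ± 21.9 to 35.9 ± 14.2 in gWAT (log2 changes -1.42, adjusted p = 0.000912, and -1.08, adjusted p = 0.0185). Hmox1, the haem-degrading enzyme, fell in both, with log2 changes of -0.97 (adjusted p = 0.0344) and -1.40 (adjusted p = 0.00777), and its liver call was lost without liver control 1, 2, 3 or 4 or liver nicotine 1, 4 or 5 (adjusted p 0.0558 to 0.103). Hspa5, the chaperone BiP of the endoplasmic reticulum, stood at 3252, 3681, 2239, 2515 and 2355 in the controls and 1627, 1703, 1759, 1498 and 1819 in the nicotine group in liver. In gWAT, Hspa5 stood at 1426, 1335, 1078, 1409 and 1263 in the controls and 612, 801, 1172, 987 and 967 in the nicotine group. The liver groups did not overlap (log2 change -0.72, adjusted p = 0.00131) and 4 of 5 nicotine libraries were below all gWAT controls (log2 change -0.55, adjusted p = 0.0414), but the gWAT call was lost without gWAT control 1, 2, 4 or 5 or gWAT nicotine 1, 2, 4 or 5 (adjusted p 0.0532 to 0.0957). Creld2 and Pdia6, which also serve protein folding in the endoplasmic reticulum, fell in both, with log2 changes of -1.13 and -0.47 in liver and -0.96 and -0.55 in gWAT. Creld2 was not called in gWAT without gWAT control 3 or 4 (adjusted p 0.0521 to 0.0527), and Pdia6 not in liver without liver control 1, 2 or 5 or liver nicotine 1, 3 or 4 (adjusted p 0.05 to 0.0619). The gWAT calls of Hspa5, Creld2 and Pdia6 were lost without gWAT controls 2 and 4, and those of Bbc3, Creld2 and Pdia6 with the length and GC trend removed. The contrasts of these 6 genes lay between -0.53 and 0.34, and none passed.

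As lists, the stress genes were mostly not called. Of 20 unfolded protein response genes, 1 rose and 4 fell in liver (median log2 change -0.24) and 1 rose and 6 fell in gWAT (median -0.17). Herpud1, of the same list, rose in liver (log2 change 0.76, adjusted p = 0.000164) and had a log2 change of 0.28 (adjusted p = 0.263) in gWAT. Of 19 immediate early genes, 1 rose and 4 fell in liver (median -0.50) and 3 rose and 5 fell in gWAT (median -0.22), and Junb was the member called in both. Jund, another AP-1 subunit, went from 32.7 ± 9.81 to 32.5 ± 5.05 in liver and from 24.7 ± 4.55 to 137 ± 50.1 in gWAT, with a contrast of 2.32 (SE 0.35, adjusted p = 0.000117). Of 19 cytosolic chaperones, 4 fell in liver, and 2 rose and 5 fell in gWAT, with 5 contrasts called, all more positive in gWAT. Hsp90aa1, the inducible HSP90, had a log2 change of -0.46 (adjusted p = 0.0559) in liver and rose in gWAT (log2 change 0.88, adjusted p = 0.00358), a contrast of 1.34 (SE 0.23, adjusted p = 0.00036). Over all genes the medians were -0.01 in liver and 0.03 in gWAT. Among all tested genes 1.35% rose and 1.52% fell in liver, 14.2% rose and 12.0% fell in gWAT, and 11.0% had a more positive contrast. The share that fell in liver was above that of all genes in each of these lists. The share of immediate early genes that rose in gWAT was near that of all genes. In gWAT, 2 unfolded protein response genes and no chaperone fell once gWAT controls 2 and 4 were left out, and no immediate early gene fell with gWAT control 5 also left out. In liver, 1 chaperone fell without the livers that carried muscle transcripts. The other named genes lower in both tissues were Surf4, Kdm4a, Ppp3r1, Rraga, Tmx1, Rhpn2, Sertad3, Slc39a8, Atg101, Snord89, Gse1, Lyve1 and Wrnip1, and 1 was a predicted gene.

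G0s2 fell in liver and rose in gWAT. It encodes a small protein that inhibits the triglyceride lipase ATGL. In liver it stood at 481, 547, 389, 429 and 328 in the controls and 122, 92.2, 92.4, 85.1 and 139 in the nicotine group, and every nicotine library was below every control (log2 change -2.03, SE 0.14, adjusted p = 1.26e-07). In gWAT it stood at 229, 142, 189, 242 and 218 in the controls and 371, 325, 371, 349.7 and 213 in the nicotine group, with 4 of 5 nicotine libraries above all controls (log2 change 0.67, SE 0.20, adjusted p = 0.023). The contrast was 2.70 (SE 0.26, adjusted p = 9.95e-07), and it stayed called without any single library. The rise in gWAT by itself was not called without gWAT control 2 or 3 or gWAT nicotine 2, 3 or 4 (adjusted p 0.0502 to 0.0548), nor without gWAT controls 2 and 4. G0s2 is a minus-strand gene of chromosome 1 (193272161 to 193273217, mm10) and overlaps Lamb3 on the other strand, so reads of the 2 cannot be told apart where strand was not used. Its promoter is shown as that of a lipolysis gene that moved in opposite directions. None of the 8 motifs searched on both strands was in these 221 bases (RefSeq, GRCm38.p6, chr1:193273218-193273438, minus strand), which says only that those letters are not in this window. They were CACGTG (E-box), TTATGTAA and TTACGTAA (D-boxes), TAGGTCA (REV-ERB and ROR element), TGACGTCA (cyclic AMP response element), TTGCGTG (xenobiotic response element), the glucocorticoid response element and the heat shock element:
G0s2: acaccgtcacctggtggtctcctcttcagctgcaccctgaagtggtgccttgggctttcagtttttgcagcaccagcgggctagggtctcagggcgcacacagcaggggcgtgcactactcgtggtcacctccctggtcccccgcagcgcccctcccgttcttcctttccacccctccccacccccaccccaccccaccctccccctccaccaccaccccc

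Plin5, another gene of the lipid droplet, also fell in liver and rose in gWAT. Plin5, a coat protein of tissues that oxidize fat, stood at 108, 76.2, 61.4, 67.5 and 85.5 in the controls and 42.3, 51.4, 58.0, 48.0 and 42.4 in the nicotine group in liver. In gWAT, Plin5 stood at 24.5, 12.8, 16.6, 5.50 and 4.97 in the controls and 40.1, 66.4, 107, 26.4 and 39.4 in the nicotine group. The groups overlapped in neither tissue, with log2 changes of -0.69 (adjusted p = 0.0151) in liver, 2.09 (adjusted p = 0.00431) in gWAT and a contrast of 2.78 (SE 0.49, adjusted p = 0.000416). In liver, Plin5 was not called without liver control 1 or 5 (adjusted p 0.05 to 0.0503), nor without the livers that carried muscle transcripts. In gWAT, Plin5 was not called without gWAT controls 2, 4 and 5. Plin2, the coat protein of most cells, fell in liver from 900.2 ± 127 to 597 ± 108 (log2 change -0.60, adjusted p = 0.00475) and went from 274 ± 62.1 to 479 ± 270.4 in gWAT (log2 change 0.67, adjusted p = 0.106), a contrast of 1.27 (SE 0.33, adjusted p = 0.0103). The contrast was not called without gWAT controls 2, 4 and 5. Of 10 lipolysis and lipid droplet genes tested, 3 fell in liver (G0s2, Plin2 and Plin5), 4 rose and 1 fell in gWAT, and 5 contrasts were called, all more positive in gWAT. Across all tested genes 1.52% fell in liver, 14.2% rose and 12.0% fell in gWAT, and 11.0% of contrasts were more positive. With gWAT controls 2, 4 and 5 left out, 0 of the 10 rose in gWAT (limma), and 3 contrasts were more positive and 1 more negative. Mgll, the last enzyme of lipolysis, had a log2 change of -0.21 (adjusted p = 0.419) in liver and rose in gWAT from 1871 ± 494 to 4651 ± 1389. The lipase Pnpla2 itself was not called, with log2 changes of 0.004 (adjusted p = 0.993) in liver and -0.19 (adjusted p = 0.682) in gWAT. Nor was Lipe, with -0.20 (adjusted p = 0.648) and 0.16 (adjusted p = 0.72).

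The other 12 genes called in opposite directions changed less in liver than G0s2. Clpx, the unfoldase of the mitochondrial ClpXP protease, stood at 249, 246, 176, 263 and 237 in the controls and 111, 139.8, 166, 131 and 162 in the nicotine group in liver. In gWAT, Clpx stood at 55.9, 41.2, 62.9, 46.7 and 55.5 in the controls and 76.8, 145, 105, 87.7 and 89.1 in the nicotine group, without overlap in either (contrast 1.63, SE 0.24, adjusted p = 0.000102). Slc16a1, the lactate and ketone body carrier MCT1, went from 147 ± 34.0 to 91.6 ± 21.1 in liver and from 51.4 ± 7.47 to 74.4 ± 13.3 in gWAT (contrast 1.19, SE 0.25, adjusted p = 0.00219). Psmd4, a ubiquitin receptor of the proteasome, fell in liver from 336 ± 43.8 to 225 ± 23.0 and rose in gWAT from 310.3 ± 41.8 to 457 ± 91.3. Tob1, an antiproliferative protein, had a log2 change of -0.44 in liver and 0.65 in gWAT, and Ggnbp2 -0.32 and 1.32. Kif21a, a kinesin, had log2 changes of -0.33 and 1.31, and Rnf125, a ubiquitin ligase, -0.50 and 1.004. Rnase4, a secreted ribonuclease that shares its locus with Ang, rose in liver and fell in gWAT. It stood at 2139, 1849, 2624, 2272 and 1814 in the controls and 3206, 3043, 2364, 3436 and 2747 in the nicotine group in liver. In gWAT, Rnase4 stood at 276, 222, 273, 509 and 564 in the controls and 243, 78.5, 77.3, 67.3 and 152 in the nicotine group (contrast -2.12, SE 0.40, adjusted p = 0.000756), and 4 of 5 nicotine libraries lay outside the control range in each tissue. Atp1b1, the beta subunit of the sodium pump, Fam107b and Fam168b also rose in liver (log2 changes 0.40, 0.55 and 0.59) and fell in gWAT (log2 changes -1.23, -0.89 and -0.76). Snora81, whose values are given with the highest contrasts, was the remaining gene. The contrasts of these genes stayed called without any single library. In liver, the call was lost for Slc16a1 without liver control 2, 4 or 5 or liver nicotine 2, 3 or 4 (adjusted p 0.0594 to 0.0852). For Tob1 it was lost without liver control 1, 3 or 4 or liver nicotine 2, 4 or 5 (adjusted p 0.0527 to 0.0828), and for Ggnbp2 without liver control 1 or 4 or liver nicotine 1 (adjusted p 0.0505 to 0.0671). For Kif21a it was lost without liver control 1, 2, 3, 4 or 5 or liver nicotine 1, 3 or 4 (adjusted p 0.06 to 0.113), and for Rnase4 without liver control 2 or 5 or liver nicotine 1 or 4 (adjusted p 0.0519 to 0.0827). For Atp1b1 it was lost without liver control 2 or 5 or liver nicotine 1, 3 or 4 (adjusted p 0.0527 to 0.089). For Fam107b it was lost without liver control 1, 2 or 4 or liver nicotine 1 or 4 (adjusted p 0.0511 to 0.0717), and for Fam168b without liver control 1, 2, 3, 4 or 5 or liver nicotine 1, 2, 3 or 4 (adjusted p 0.061 to 0.112). The gWAT calls of Psmd4, Rnf125, Tob1, Atp1b1 and Fam107b were lost without gWAT controls 2 and 4. Those of Rnase4, Clpx, Kif21a, Fam168b and Slc16a1 were lost without gWAT controls 2, 4 and 5. That of Slc16a1 was also lost with the length and GC trend removed. With single libraries left out, the gWAT call was lost for Slc16a1 without gWAT control 1, 3, 4 or 5 or gWAT nicotine 2, 3 or 5 (adjusted p 0.0518 to 0.117). Psmd4 lost it without gWAT control 2, 3, 4 or 5 or gWAT nicotine 2, 3 or 4 (adjusted p 0.0544 to 0.0816). Tob1 lost it without gWAT control 4 or 5 or gWAT nicotine 2, 3 or 4 (adjusted p 0.0688 to 0.0878). Atp1b1 lost it without gWAT control 2 or 4 or gWAT nicotine 2, 3 or 4 (adjusted p 0.0504 to 0.0621), and Fam107b without gWAT control 4 (adjusted p 0.0525). The count of 14 was 7 without liver control 1, 8 without liver control 2 or liver control 5, 9 without gWAT control 4 or gWAT nicotine 3, 8 without gWAT controls 2 and 4, and 5 without the livers that carried muscle transcripts. It was 2 without gWAT controls 2, 4 and 5. The 5 genes left without the livers that carried muscle transcripts were G0s2, Clpx, Psmd4, Rnf125 and Atp1b1.

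**Figure D4:**
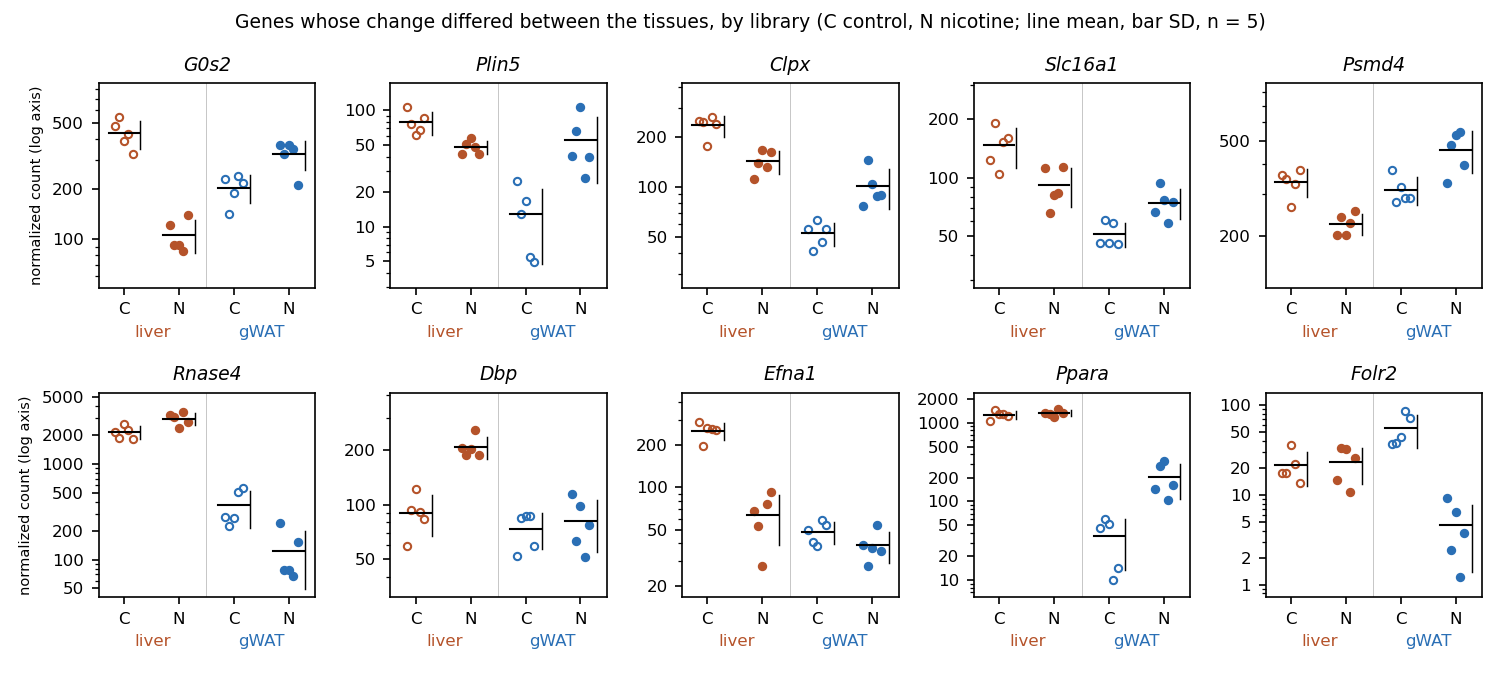
Normalized counts (log axes) of 10 genes whose tissue contrast was called, 1 point per library, C control (open) and N nicotine (filled), black line the mean and bar the SD of 5 libraries. G0s2, Plin5 and Clpx fall in liver and rise in gWAT, Rnase4 does the opposite, Dbp and Efna1 separate the liver groups, and Ppara and Folr2 separate the gWAT groups.

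Other genes changed in liver and were not called in gWAT, with called contrasts. Angptl4, a secreted inhibitor of lipoprotein lipase, rose in liver and was lower on average in gWAT. It stood at 82.5, 107, 76.7, 78.0 and 88.3 in the controls and 163, 174, 172, 176 and 170.4 in the nicotine group in liver, without overlap. In gWAT, Angptl4 stood at 459.7, 235, 349, 326 and 313 in the controls and 181, 333, 245, 174 and 251 in the nicotine group, where 2 of 5 nicotine libraries were below all controls. The log2 changes were 0.99 (adjusted p = 2.53e-05) and -0.51 (adjusted p = 0.0892), with a contrast of -1.50 (SE 0.24, adjusted p = 0.00021). Tsc22d3, the glucocorticoid-induced protein GILZ, rose in liver from 72.2 ± 9.80 to 195 ± 46.9 and went from 139 ± 61.1 to 134 ± 19.1 in gWAT, a contrast of -1.35 (SE 0.31, adjusted p = 0.00395). Pfkfb3, which makes a sugar bisphosphate that activates glycolysis, rose 3.93-fold in liver and had a log2 change of 0.58 (adjusted p = 0.0508) in gWAT, where it was called with DESeq2, with quantile normalization, with library weights and without gWAT control 1 or gWAT nicotine 1. It had a contrast of -1.41 (SE 0.31, adjusted p = 0.00291). Efna1, an ephrin ligand, fell in liver, where it stood at 290.3, 195, 263, 257 and 252 in the controls and 67.8, 53.3, 27.9, 76.3 and 93.0 in the nicotine group. In gWAT, Efna1 stood at 49.98, 41.2, 38.4, 58.6 and 53.8 in the controls and 39.0, 27.8, 37.3, 54.1 and 35.6 in the nicotine group. The liver groups were far apart (log2 change -2.06, adjusted p = 1.92e-05) and the gWAT groups overlapped (log2 change -0.33, adjusted p = 0.265), with a contrast of 1.73 (SE 0.33, adjusted p = 0.000881). Atf4, the transcription factor of the integrated stress response, fell in liver (log2 change -0.66, adjusted p = 0.00123) and had a log2 change of 0.43 (adjusted p = 0.0918) in gWAT, a contrast of 1.09 (SE 0.21, adjusted p = 0.000831). Insig2, which retains the sterol sensor SCAP in the endoplasmic reticulum, fell in liver from 895 ± 124 to 452 ± 95.6 (log2 change -0.999, adjusted p = 0.000164) with a log2 change of -0.26 (adjusted p = 0.362) in gWAT. Its contrast of 0.74 (SE 0.25, adjusted p = 0.0439) was not called without liver control 1, 2, 4 or 5 or liver nicotine 2 or 4 or gWAT control 2, 3, 4 or 5 or gWAT nicotine 1, 2 or 4 (adjusted p 0.0582 to 0.0874), nor with edgeR or DESeq2. Of 14 glucocorticoid receptor targets, 4 rose and 1 fell in liver and 4 rose in gWAT (2 without gWAT controls 2, 4 and 5). For all tested genes these shares were 1.35% and 1.52% in liver and 14.2% in gWAT. Of the list's contrasts, 1 was more positive and 3 more negative, against 11.0% and 8.42% of all genes. Errfi1 was the member called in both tissues.

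Genes of mitochondrial fuel use rose in gWAT and were mostly not called in liver. Of 27 fatty acid oxidation genes tested, 19 rose and 1 fell in gWAT (median log2 change 1.05), 1 fell and none rose in liver (median -0.10), and the contrast was called for 19, all more positive in gWAT, against 11.0% of all genes. Ppara, the nuclear receptor that switches on this pathway, stood at 1052, 1448, 1306, 1278 and 1233 in the controls and 1352, 1283, 1178, 1510.4 and 1346 in the nicotine group in liver. In gWAT, Ppara stood at 46.1, 60.5, 52.4, 10.1 and 14.1 in the controls and 143, 281, 327, 106 and 161 in the nicotine group. The liver groups overlapped and the gWAT groups did not. The log2 changes were 0.08 (adjusted p = 0.698) and 2.63 (adjusted p = 0.00149), and the contrast was 2.55 (SE 0.51, adjusted p = 0.00125). Its coactivator Ppargc1b had a contrast of 2.33 (SE 0.36, adjusted p = 0.000157), and Pank1, the first enzyme of coenzyme A synthesis, one of 2.45 (SE 0.44, adjusted p = 0.000518). Hadhb, a subunit of the trifunctional enzyme of beta-oxidation, stood at 157, 180.4, 171, 186 and 169 in the controls and 197, 132, 128, 177 and 187 in the nicotine group in liver. In gWAT, Hadhb stood at 175, 153, 169, 109 and 142 in the controls and 279, 673, 813, 346 and 395 in the nicotine group (contrast 1.73, SE 0.31, adjusted p = 0.000468). Acadl, the long-chain acyl-CoA dehydrogenase, rose 2.37-fold in gWAT (399 ± 94.98 to 943 ± 240.5) and went from 528 ± 55.1 to 506 ± 52.0 in liver. Of 26 genes of the TCA cycle and pyruvate dehydrogenase, 15 rose in gWAT and 1 in liver, with 12 contrasts called, all more positive in gWAT. For both lists the shares of all tested genes were 14.2% higher and 12.0% lower in gWAT, and 1.35% higher and 1.52% lower in liver. Idh3a, a subunit of isocitrate dehydrogenase, had a contrast of 2.07 (SE 0.35, adjusted p = 0.000318) and Mdh2, malate dehydrogenase, one of 1.28 (SE 0.21, adjusted p = 0.00026). Leaving out gWAT controls 2 and 4, 14 oxidation genes rose in gWAT with 18 contrasts called, and 8 TCA cycle genes rose with 9 contrasts called. With gWAT control 5 also left out, the counts were 9 and 11 for oxidation and 4 and 7 for the TCA cycle.

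Lipid synthesis genes had positive median changes in gWAT and fewer calls. Of 21 fatty acid and triglyceride synthesis genes, 8 rose in gWAT (median 1.04) and 2 in liver (median 0.09), and 2 contrasts were called, all more positive in gWAT. By comparison, 14.2% of all tested genes rose and 12.0% fell in gWAT, and 1.35% rose and 1.52% fell in liver. A more positive contrast was called for 11.0% of all genes, so the 2 contrasts of this list were near that share. Of the 21, 1 rose in gWAT without gWAT controls 2 and 4, and 4 with edgeR. Fasn, fatty acid synthase, stood at 2997, 2571, 6635, 1356 and 2647 in the controls and 2214, 8815, 15878, 11051 and 5743 in the nicotine group in gWAT, where its log2 change of 1.35 (adjusted p = 0.0525) and its contrast of 1.46 (SE 0.55, adjusted p = 0.0635) did not pass, although both were called with quantile normalization. Of 23 cholesterol synthesis and sterol regulation genes, 7 rose and 1 fell in gWAT (median 0.54) and 1 fell in liver (median -0.31), with 8 contrasts called, all more positive in gWAT. Sc5d, a late enzyme of cholesterol synthesis, rose in gWAT from 167 ± 47.9 to 418 ± 129 and went from 2538 ± 212 to 2607 ± 262 in liver (contrast 1.27, SE 0.27, adjusted p = 0.00189). Of these genes, 3 rose in gWAT and 5 contrasts were called with gWAT controls 2 and 4 left out, 1 rose with gWAT control 5 also left out, and 5 contrasts were called without the livers that carried muscle transcripts. Of 17 branched-chain amino acid breakdown genes, 3 rose in gWAT and 2 in liver, with 3 contrasts called, all more positive in gWAT, against 14.2% of all genes higher in gWAT and 11.0% with a more positive contrast. In gWAT this count is near the share of all genes. Without gWAT controls 2 and 4, 1 contrast was called, and with gWAT control 5 also left out, none rose in gWAT and no contrast was called (limma). Neither liver call held without the livers that carried muscle transcripts.

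**Figure D5:**
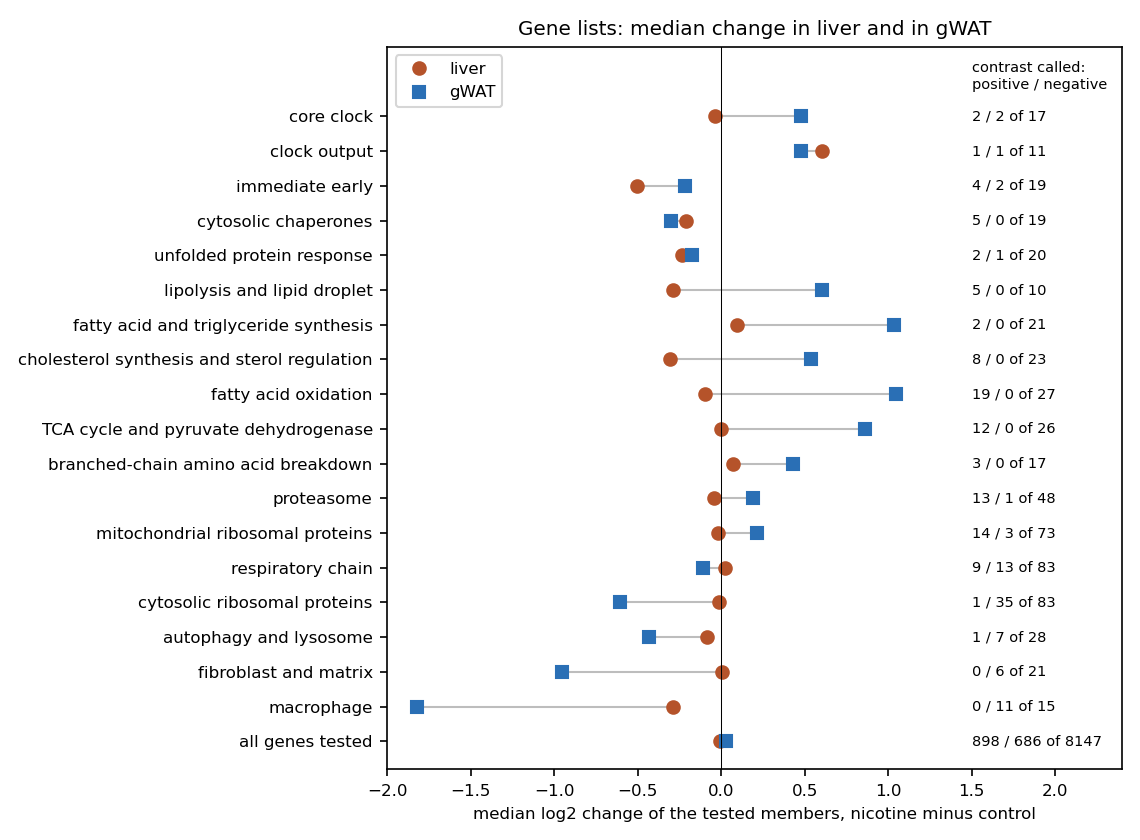
Median log2 change of the tested members of 18 gene lists and of all genes, in liver (circles) and in gWAT (squares), with the number of called contrasts, positive and negative, of the members tested at the right. Among these lists the medians lie farthest apart for macrophage genes (-0.29 in liver, -1.83 in gWAT) and for fatty acid oxidation genes (-0.10 and 1.05).

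Macrophage genes fell in gWAT and were not called in liver. Of the 15 tested, 13 fell in gWAT (median log2 change -1.83) and none was called in liver (median -0.29) by limma, edgeR or DESeq2. At an unadjusted p below 0.05 in liver, 1 was higher and 3 were lower. The contrast was called for 11 of the 15, all more negative in gWAT, against 8.42% of all genes. With gWAT controls 2 and 4 left out, 10 fell in gWAT with 11 contrasts called, and with gWAT control 5 also left out, 8 fell with 9. Folr2, a folate receptor of resident macrophages, stood at 17.5, 17.4, 36.4, 21.9 and 13.6 in the controls and 14.7, 33.3, 32.2, 10.9 and 25.8 in the nicotine group in liver. In gWAT, Folr2 stood at 37.2, 37.6, 44.5, 86.1 and 72.0 in the controls and 9.17, 2.42, 6.36, 1.20 and 3.75 in the nicotine group, with no overlap (contrast -3.54, SE 0.54, adjusted p = 0.000157). C1qc, a chain of complement C1q made by macrophages, stood at 61.2, 54.0, 49.9, 37.1 and 53.7 in the controls and 31.5, 53.3, 66.6, 31.6 and 33.1 in the nicotine group in liver. In gWAT, C1qc stood at 132, 114, 116, 219 and 155 in the controls and 36.7, 12.1, 22.7, 16.8 and 27.2 in the nicotine group (contrast -2.38, SE 0.37, adjusted p = 0.000162). Fcna, the lectin ficolin A, had the lowest contrast, -3.69 (SE 0.71, adjusted p = 0.000959), among genes with a mean of 20 or more in both tables. After it came Folr2, the chemokine Ccl6 (-3.00), Plac8 (-3.00), Wfdc17 (-2.95) and the phospholipase Pla1a (-2.94). The lysosomal prosaposin Psap (-2.93) and Tmem258 (-2.72), a subunit of the oligosaccharyltransferase complex that overlaps Fen1 on the other strand, came next. Plac8 stood at 78.4, 59.5, 93.5, 1287 and 492 in the controls and 86.0, 20.5, 12.7, 18.0 and 26.3 in the nicotine group in gWAT, where the groups overlapped. It was high in gWAT controls 4 and 5, which carried ovary and oviduct transcripts, and their part in this was not tested. Without gWAT controls 2, 4 and 5 its contrast was -1.82 (adjusted p = 0.0373), and its change in gWAT of -1.70 was not called (adjusted p = 0.0813). In liver, the 28 markers of the whole list added up to 1239 to 1568 among controls and 1012 to 1656 after paternal nicotine, which overlap. In gWAT their ranges, given above, did not overlap. In gWAT 1 of the 28 was at 0 in every control library and 2 in every nicotine library. The 3 MHC class II genes tested, which present antigen on macrophages, dendritic and B cells, all fell in gWAT. None was called in liver by limma, edgeR or DESeq2, where 2 were higher at an unadjusted p below 0.05. H2-Eb1 stood at 22.3, 11.6, 19.2, 30.4 and 21.8 in the controls and 15.7, 24.7, 14.0, 19.6 and 26.9 in the nicotine group in liver. In gWAT, H2-Eb1 stood at 157, 122, 185, 225 and 122 in the controls and 26.4, 21.7, 32.7, 31.2 and 57.2 in the nicotine group (contrast -2.22, SE 0.37, adjusted p = 0.000295). Of 21 fibroblast and matrix genes, 9 fell in gWAT, with 6 contrasts called, all more negative in gWAT, against 12.0% and 8.42% of all genes. Leaving out gWAT controls 2 and 4, 6 fell, and with gWAT control 5 also left out, 4 fell. None was called in liver by limma, edgeR or DESeq2, with 1 higher and 1 lower at an unadjusted p below 0.05. Pdgfra, the receptor that marks adipose progenitors, fell in gWAT from 184 ± 48.3 to 45.0 ± 18.6 (contrast -1.87, SE 0.40, adjusted p = 0.00208), and its liver values went from 14.6 ± 2.63 to 13.1 ± 5.08. Of 28 autophagy and lysosome genes, 1 rose and 10 fell in gWAT and 1 rose in liver, with 1 contrast more positive and 7 more negative. Without gWAT controls 2 and 4, 6 fell, and with the length and GC trend removed, 4 contrasts were more negative. Map1lc3b, which encodes the autophagosome protein LC3B, fell in gWAT from 1182 ± 174 to 386 ± 36.5 and went from 546 ± 34.3 to 443 ± 71.7 in liver (contrast -1.29, SE 0.18, adjusted p = 5.35e-05).

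Many transcripts of the cytosolic ribosome fell in gWAT and were mostly not called in liver. Of 83 cytosolic ribosomal protein genes, 40 fell and 1 rose in gWAT (median -0.61) and 1 rose in liver (median -0.01), with 35 contrasts more negative in gWAT and 1 more positive. Over all genes, 12.0% fell in gWAT and 8.42% had a more negative contrast. Rpl37a stood at 283, 284, 293, 269 and 337 in the controls and 269, 310.0, 247, 212 and 311 in the nicotine group in liver. In gWAT, Rpl37a stood at 2300.2, 1977, 1356, 1637 and 1479 in the controls and 553, 408, 426, 275 and 514 in the nicotine group (contrast -1.89, SE 0.24, adjusted p = 2.1e-05). With gWAT controls 2 and 4 left out, 21 fell in gWAT with 20 negative contrasts, with gWAT control 5 also left out, 12 fell with 20, and with the length and GC trend removed, 25 fell with 16. Of 83 nuclear genes of the respiratory chain, 12 rose and 18 fell in gWAT and 1 rose in liver, with 9 contrasts more positive and 13 more negative in gWAT. Over all genes 14.2% rose and 12.0% fell in gWAT, and 11.0% and 8.42% of contrasts were more positive and more negative, so the share that rose and the share of positive contrasts were near those of all genes. With the length and GC trend removed, 19 of 77 rose and 7 fell, with 15 positive and 9 negative contrasts. Leaving out gWAT controls 2 and 4, 8 rose and 8 fell, and with gWAT control 5 also left out, 3 rose and 8 fell. Cox8a and Ndufb2, small subunits of complexes IV and I, had contrasts of -2.09 (SE 0.30, adjusted p = 8.66e-05) and -1.94 (SE 0.29, adjusted p = 0.000118). The median contrast of this list was -0.14, and 0.18 with the length and GC trend removed, so its direction turned with that setting. The mitochondrially encoded transcripts had positive changes in gWAT in 10 of 10 genes tested, with 5 called, and 6 contrasts were called. ND2, a complex I subunit encoded in mitochondria, stood at 41909.5, 39945, 44127, 37389 and 40486 in the controls and 36619, 35749, 29427, 35545 and 35825 in the nicotine group in liver. In gWAT, ND2 stood at 18333, 15773, 13812, 11551 and 9900.4 in the controls and 20882, 39459, 44710.5, 27272 and 24249 in the nicotine group (contrast 1.39, SE 0.30, adjusted p = 0.00283). Leaving out gWAT controls 2 and 4, none of the 10 was called in gWAT and 6 contrasts were called, and with gWAT control 5 also left out 2 contrasts were called. With quantile normalization, 3 of the 10 changes and 3 contrasts were called. With the length and GC trend removed, 3 of these genes were tested, and all 3 changes and all 3 contrasts were called. Of 73 mitochondrial ribosomal proteins, 17 rose and 7 fell in gWAT and 1 rose in liver, and 14 contrasts were positive and 3 negative. Without gWAT controls 2 and 4, 10 rose and 1 fell, and with gWAT control 5 also left out, 5 rose and 1 fell. The positive contrasts were 9 with those 3 left out, and 9 without the livers that carried muscle transcripts. Of 48 proteasome genes, 13 rose and 3 fell in gWAT and 1 fell in liver, with 13 positive contrasts and 1 negative. With gWAT controls 2, 4 and 5 left out, 8 rose. Psmd1, a scaffold of the regulatory particle, rose in gWAT from 249.7 ± 28.1 to 524 ± 96.5 and went from 479 ± 8.29 to 481 ± 38.2 in liver (contrast 1.05, SE 0.17, adjusted p = 0.000277).

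The 8 most positive contrasts included 3 RNA and chromatin genes, Snora81, Baz2a and Ctcflos. Snora81, a small nucleolar RNA within Eif4a2, stood at 358, 301, 259.9, 259.6 and 268 in the controls and 224, 98.9, 237, 173 and 157 in the nicotine group in liver. In gWAT, Snora81 stood at 49.98, 37.6, 40.2, 74.2 and 48.0 in the controls and 2121, 2094, 277, 1677 and 605 in the nicotine group, without overlap in either tissue. Its contrast of 5.15 (SE 0.55, adjusted p = 2.08e-06) was the highest among genes with a mean of 20 or more in both tables. In liver it was not called without liver control 1 (adjusted p 0.0602). It lies on the same strand as its host gene, so its reads may come from either. Baz2a, a subunit of the nucleolar remodelling complex, had a log2 change of -0.43 (adjusted p = 0.121) in liver and rose in gWAT from 27.0 ± 4.49 to 119 ± 23.4 (contrast 2.52, SE 0.24, adjusted p = 9.95e-07). Ctcflos, annotated as antisense to Ctcfl, had a log2 change of -0.77 (adjusted p = 0.09) in liver and 1.67 (adjusted p = 0.00239) in gWAT (contrast 2.43, SE 0.42, adjusted p = 0.000382). Several metabolic and stress regulators were called in neither tissue nor in the contrast. Among them Irs2 had a log2 change of -0.31 in liver and -0.07 in gWAT, Cdkn1a -0.65 and -0.28, Fkbp5 0.50 and -0.20, Srebf1 0.56 and 0.63, Lpl 0.31 and 0.26, and Pck1 0.24 and -0.52.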

How the data were processed

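Per the submitters' processing notes, reads were trimmed with cutadapt, aligned to mm10 with STAR and normalized with DESeq2. The annotation, counting tool and strand setting were not given in the sources used here. The authors deposited normalized counts per gene (a signal, reads divided by a size factor per library), separately for each tissue. Whole reads, within 0.1, were recovered from 100% of values. The authors' deposited log2 fold changes and adjusted p-values were used only as counts.

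The 20 female libraries formed 4 groups of 5. With limma 3.58.1 (R 4.3.3) and an intensity trend, log2(normalized count + 1) was fitted per tissue over the genes with a mean of 10 or more in its table. The contrast was fitted to all 4 groups over the genes that reached that mean in both tables. A gene changed alike where the larger of its p-values, with equal signs, passed 0.05 after Benjamini-Hochberg adjustment. The code was tested on simulated data. Alternatives were pseudocounts of 0.5 and 5, no minimum, a mean of 50 or more, quantile normalization, library weights, separate spread, replicate blocks, edgeR 4.0.16 and DESeq2 1.42.0 on the recovered reads, and libraries left out. Leaving out gWAT controls 2 and 4 (alone, with gWAT control 5, or with liver control 4 and liver nicotine 5), removing the trends with transcript length and with GC content from each gWAT library, and counting genes called in each table's own fit by direction were chosen after seeing the data.

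Named genes are the 8 highest and 8 lowest contrasts with a mean of 20 or more in both tables, the 6 genes with the smallest larger p-value, up to 3 per gene list and a fixed set of metabolic and stress genes. Other genes were named after their values were seen. The genes and lists were chosen with earlier results of these data known, and predicted genes are counted and not named. Positions are from GENCODE M21 by symbol (16568 of 18176 genes matched) and promoters from RefSeq.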

Additional observations from a re-analysis of the deposited data

Results flagged for a closer look

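Single libraries stood apart in 32 of 468 groups of 5 looked at for the named genes and marker sums, by a gap to the nearest other library of over 0.71 of the group's range. Chance gives about 1 in 20 such groups, or 23.4. For skeletal muscle markers these were liver control 4 (269, the nearest 2.89), liver nicotine 5 (427, the nearest 38.3) and gWAT control 2 (34870.3, the nearest 1521). For ovary and oviduct markers they were liver control 2 (80.0, the nearest 46.6), liver nicotine 5 (218, the nearest 73.2) and gWAT nicotine 1 (205, the nearest 75.9), and for epithelium and mammary gland markers gWAT nicotine 5 (511, the nearest 134). The epithelium and mammary gland markers were also high in gWAT control 2 (615) and gWAT control 4 (353), which the rule did not flag. Controls 1, 3 and 5 of gWAT stood at 7.84, 34.1 and 128 for them. Normalized counts that stood high were those of Dbp in liver nicotine 4 (256, the nearest 203), Npas2 in liver nicotine 5 (4.13, the nearest 0), Usp2 in gWAT control 2 (77.0, the nearest 16.5), Alas1 in gWAT control 1 (109.8, the nearest 58.0), Errfi1 in liver control 2 (821, the nearest 383), Pdk4 in liver control 2 (8.68, the nearest 1.90), Pdk4 in gWAT control 2 (18.3, the nearest 5.50), Pck1 in gWAT control 1 (15887, the nearest 7608) and Srebf1 in gWAT control 3 (82.1, the nearest 40.3). So did Hsph1 in gWAT nicotine 3 (113, the nearest 66.4), Egr1 in liver control 2 (503, the nearest 172), Egr1 in liver nicotine 5 (382, the nearest 103), Hmox1 in gWAT control 4 (87.9, the nearest 41.1), Fam168b in liver nicotine 3 (61.2, the nearest 43.7), Fam107b in gWAT nicotine 3 (30.9, the nearest 20.4), Plac8 in gWAT nicotine 1 (86.0, the nearest 26.3), Wfdc17 in gWAT control 4 (257, the nearest 92.1), Wfdc17 in gWAT nicotine 5 (33.8, the nearest 10.9), Insig2 in gWAT control 1 (304, the nearest 183) and Herpud1 in liver control 2 (1521, the nearest 1127). Those that stood low were Fcgr2b in gWAT nicotine 4 (4.81, the nearest 11.3), Atf4 in liver control 3 (188, the nearest 209.7), Baz2a in gWAT control 2 (19.2, the nearest 27.3), Psmd1 in liver nicotine 2 (414, the nearest 492) and ND2 in liver nicotine 3 (29427, the nearest 35545).

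The exposure change differed between the tissues, by limma's test of the difference itself, for 1584 genes, 56 of them named. More positive in gWAT were Snora81 (5.15), Plin5 (2.78), G0s2 (2.70), Ppara (2.55), Baz2a (2.52), Pank1 (2.45), Ctcflos (2.43), Ppargc1b (2.33), Jund (2.32), Idh3a (2.07), Hadhb (1.73), Efna1 (1.73), Ggnbp2 (1.65), Clpx (1.63), Kif21a (1.63), Mgll (1.51) and Rnf125 (1.5), and with smaller contrasts ND2 (1.39), Hsp90aa1 (1.34), Acadl (1.30), Mdh2 (1.28), Plin2 (1.27), Sc5d (1.27), Slc16a1 (1.19), Psmd4 (1.12), Atf4 (1.09), Tob1 (1.09), Gnas (1.05), Psmd1 (1.05), Nampt (0.77), Dbt (0.74) and Insig2 (0.74). More negative in gWAT were Fcna (-3.69), Folr2 (-3.54), Plac8 (-3.00), Ccl6 (-3.00), Wfdc17 (-2.95), Pla1a (-2.94), Psap (-2.93), Tmem258 (-2.72), C1qc (-2.38), H2-Eb1 (-2.22), Rnase4 (-2.12), Cox8a (-2.09), Ndufb2 (-1.94), Rpl37a (-1.89), Pdgfra (-1.87), Atp1b1 (-1.62), Angptl4 (-1.50), Fam107b (-1.44), Pfkfb3 (-1.41), Fam168b (-1.35), Tsc22d3 (-1.35), Map1lc3b (-1.29), Dbp (-1.12) and Fcgr2b (-0.92).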

How the results depend on the processing

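The reported counts were 234 genes called in liver, 2131 in gWAT, 1584 in the contrast, 54 called in both with the same sign, 14 with opposite signs and 1 changed alike under the stricter rule. With 1 library left out at a time they ranged from 146 to 245 in liver, 1548 to 2170 in gWAT, 1278 to 1748 in the contrast, 33 to 60 with the same sign, 7 to 17 with opposite signs and 1 to 2 alike. Without liver control 4 and liver nicotine 5 they were 134 in liver, 5 with opposite signs and 2 alike. Without gWAT controls 2 and 4 they were 1218 in gWAT, 35 and 8, and with gWAT control 5 also left out 762 in gWAT, 23 with the same sign, 2 with opposite signs and 0 alike (limma). Leaving out gWAT controls 2 and 4 with liver control 4 and liver nicotine 5 gave 134 in liver, 1218 in gWAT, 868 in the contrast, 23 with the same sign and 1 with opposite signs. These fits have fewer samples, and beyond that the cause was not tested. A minimum mean of 50 tested fewer genes and gave 1252 calls in gWAT. Without a minimum 2 genes were alike, and with DESeq2 6, and the cause was not tested. With the replicate block across tissues, liver had 37 calls, gWAT 3117, the contrast 1480, and 14 genes had the same sign and 3 opposite signs. That setting also fits both tissues together, so that they share 1 estimate of the spread, and the share of the block itself in these counts was not tested. Liver calls lost in it included those of Nampt, Gnas, Car3, Per2, Per3, Junb, Pik3r1 and Il6ra, while those of Tubb2a and Id3 held. Within tissues the replicate block gave 259 in liver, 1590 in gWAT and 1238 in the contrast. Deviations of same-numbered liver and gWAT libraries correlated at -0.04 to 0.07. Compared with 5 libraries each, 5 of 10 correlated best with their own number. These values do not settle whether same-numbered samples came from the same daughter. Of 10377 values of 97 named genes over 36 alternatives, 394 lost their call, 69 gained one, 0 reversed and 71 without a test moved by more than the spread between replicates. Reads per library, 1783822 to 2239073, limit the precision of genes near the minimum of 10.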
